A study of Homo sapiens with 12 samples.

Results

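The mature products of the miR-146 and miR-155 genes were followed in MDA-MB-231, a mesenchymal-like cell line from human triple-negative breast cancer, and in the extracellular vesicles (EVs) it released. They are 5 named rows of a table of 2588 mature miRNAs: hsa-miR-146a-5p, hsa-miR-146a-3p, hsa-miR-146b-5p, hsa-miR-146b-3p and hsa-miR-155-5p. They were chosen by name. miR-155-3p, the other arm of the miR-155 hairpin, had no count in any of the 12 libraries.

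The 12 small RNA libraries form 6 groups of 2. RAB27A knockdown EVs and cells (labelled Rab27a KD) carry a lentiviral short hairpin RNA against RAB27A, a GTPase needed for docking of multivesicular bodies before they release their vesicles. miR-122 KO EVs and cells were edited in the hsa-miR-122 gene by CRISPR-Cas9 with 2 guide RNAs. Control EVs and cells carry the empty vector. All lines derive from MDA-MB-231 and were grown with 10% fetal bovine serum. The EVs were pelleted by ultracentrifugation from medium collected after 24 h without serum but with 1% bovine serum albumin, and the cells that released them were harvested together with them. Whether the miR-122 KO line is a single clone is not given in the sources used here, and the labels name no separate control for the editing. The labels number the replicates without calling them separate cultures, so the tests measure the spread between these libraries, which may be technical.

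NF-kappaB is a transcription factor that inflammatory signals release from its inhibitors in the cytoplasm. It induces the miR-146a and miR-155 genes in macrophages and other cells. miR-146a then represses IRAK1 and TRAF6, adaptors that carry Toll-like and interleukin-1 receptor signals to NF-kappaB, and so forms a feedback brake; miR-155 represses SOCS1 and INPP5D (SHIP1), inhibitors of cytokine and immune receptor signalling. miR-146a has been studied in MDA-MB-231 as an inhibitor of NF-kappaB activity, and miR-155 is best known from leukocytes.

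The mature sequences show which members could share targets and reads. Capitals mark the seed, bases 2 to 8 from the 5′ end, which pairs with target mRNAs.
miR-146a-5p: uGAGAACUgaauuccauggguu
miR-146b-5p: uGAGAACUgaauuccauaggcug
miR-146a-3p: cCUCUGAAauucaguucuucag
miR-146b-3p: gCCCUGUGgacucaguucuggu
miR-155-5p: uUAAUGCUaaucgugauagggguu

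All 5 members matched an entry of RefSeq (GRCh38.p14). The 5p arms of miR-146a and miR-146b share the seed GAGAACU, which 3 of 2370 mature human entries hold, miR-7153-5p being the other. Over the 22 bases of miR-146a-5p, 20 are identical in miR-146b-5p. The differences, with positions counted from 1 at the 5′ end and the base of miR-146a-5p first, are G18A and U21C, and miR-146b-5p runs 1 base longer. A read trimmed before base 18 could not be assigned to one of them. The 3p arms are identical at 6 of 22 positions and have different seeds, so they cannot be confused with each other. No other RefSeq entry shared the seed of either 3p arm or of miR-155-5p.

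The genes lie on separate chromosomes. MIR146A is at chr5:160485352-160485450 on the plus strand (GRCh38), inside an exon of the long non-coding RNA MIR3142HG. MIR146B is at chr10:102436512-102436584 on the plus strand, with no host gene in GENCODE v29. MIR155 is at chr21:25573980-25574044 on the plus strand, inside an exon of the long non-coding RNA MIR155HG. The arms of miR-146a and miR-146b face each other in their hairpins, shown here with the mature arms in capitals because the arm shares given further on compare them.
MIR146A: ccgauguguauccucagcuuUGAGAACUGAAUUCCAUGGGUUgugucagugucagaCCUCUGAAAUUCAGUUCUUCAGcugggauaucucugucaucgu
MIR146B: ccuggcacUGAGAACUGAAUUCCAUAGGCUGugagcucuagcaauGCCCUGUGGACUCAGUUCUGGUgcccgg

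The starts of the host genes, 250 bases before to 50 bases after in RefSeq (GRCh38.p14), are printed because these genes are known NF-kappaB targets and miR-146a changed in level. Capitals mark matches on either strand to GGG, 5 bases of any kind and CC, a loose form of the NF-kappaB binding motif. The MIR3142HG window is chr5:160468001-160468300 and the MIR155HG window chr21:25561895-25562194, both on the plus strand. In GENCODE v29 MIR3142HG is annotated from base 160438594, outside its window, and MIR155HG from base 25561909, inside its window. The MIR3142HG window therefore shows the RefSeq start and not the GENCODE start.
MIR3142HG: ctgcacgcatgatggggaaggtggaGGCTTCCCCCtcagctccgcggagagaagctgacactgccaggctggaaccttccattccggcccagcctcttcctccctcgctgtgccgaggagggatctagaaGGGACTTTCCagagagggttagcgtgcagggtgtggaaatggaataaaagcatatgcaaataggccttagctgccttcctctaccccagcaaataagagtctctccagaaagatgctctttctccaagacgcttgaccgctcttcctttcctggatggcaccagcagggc
MIR155HG: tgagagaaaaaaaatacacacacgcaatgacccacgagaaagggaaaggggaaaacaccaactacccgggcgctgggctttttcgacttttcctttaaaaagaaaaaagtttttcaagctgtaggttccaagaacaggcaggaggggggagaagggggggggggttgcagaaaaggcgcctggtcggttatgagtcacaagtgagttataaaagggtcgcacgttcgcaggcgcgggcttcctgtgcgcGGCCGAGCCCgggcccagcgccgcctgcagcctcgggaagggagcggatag

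MIR3142HG held 2 matches to the loose motif and MIR155HG 1. The loose motif is not selective, since 58.7% of 35116 windows of this length hold it. In MIR3142HG 1 match reads GGGACTTTCC, a form of the loose motif that was looked for after this window had been seen. It is held on either strand by 67 windows, or 0.191%. These are matches of letters, and no binding was measured.

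Total counts ran from 164656 in a RAB27A knockdown EV library to 11840597 in a control cell library, and levels are given as CPM, counts scaled to the same total in every library. A single count was worth 6.07 and 5.87 CPM in the knockdown EV libraries and 0.419 CPM or less in the others. Such libraries give no amount of vesicles or of RNA, so total counts are not read as either. Fewer vesicles and less RNA per vesicle cannot be told apart in them. miR-122-5p, the edited miRNA, averaged 1.01 CPM in miR-122 KO EVs against 291 CPM in control EVs, and was also lower in knockdown EVs, at 35.9 CPM. It was not counted in miR-122 KO cells, against 0.392 CPM in control cells (5 and 4 counts). Knockdown cells held more of it than control cells, at 12.5 CPM. RAB27A mRNA is not measured by small RNA libraries. The fixed epithelial list, which MDA-MB-231 is known to hold at low level, summed to 421, 323 and 190 CPM in knockdown, miR-122 KO and control EVs and to 326, 136 and 160 CPM in the matching cells.

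miR-146a-5p held 1077118 counts over all libraries, miR-146b-5p 12963, miR-146a-3p 1634, miR-155-5p 364 and miR-146b-3p 51. miR-146a-5p, miR-146a-3p and miR-146b-5p were counted in all 12 libraries, miR-146b-3p in 10 and miR-155-5p in 7. By abundance miR-146a-5p was the third and the fourth most abundant miRNA of the table in the knockdown EV libraries and ranked 4 in both knockdown cell libraries. It ranked 5 and 6 in miR-122 KO cells and 33 in both control cell libraries. In EVs it ranked 13 and 14 in the miR-122 KO line and 19 in both control libraries.

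**Figure D1:**
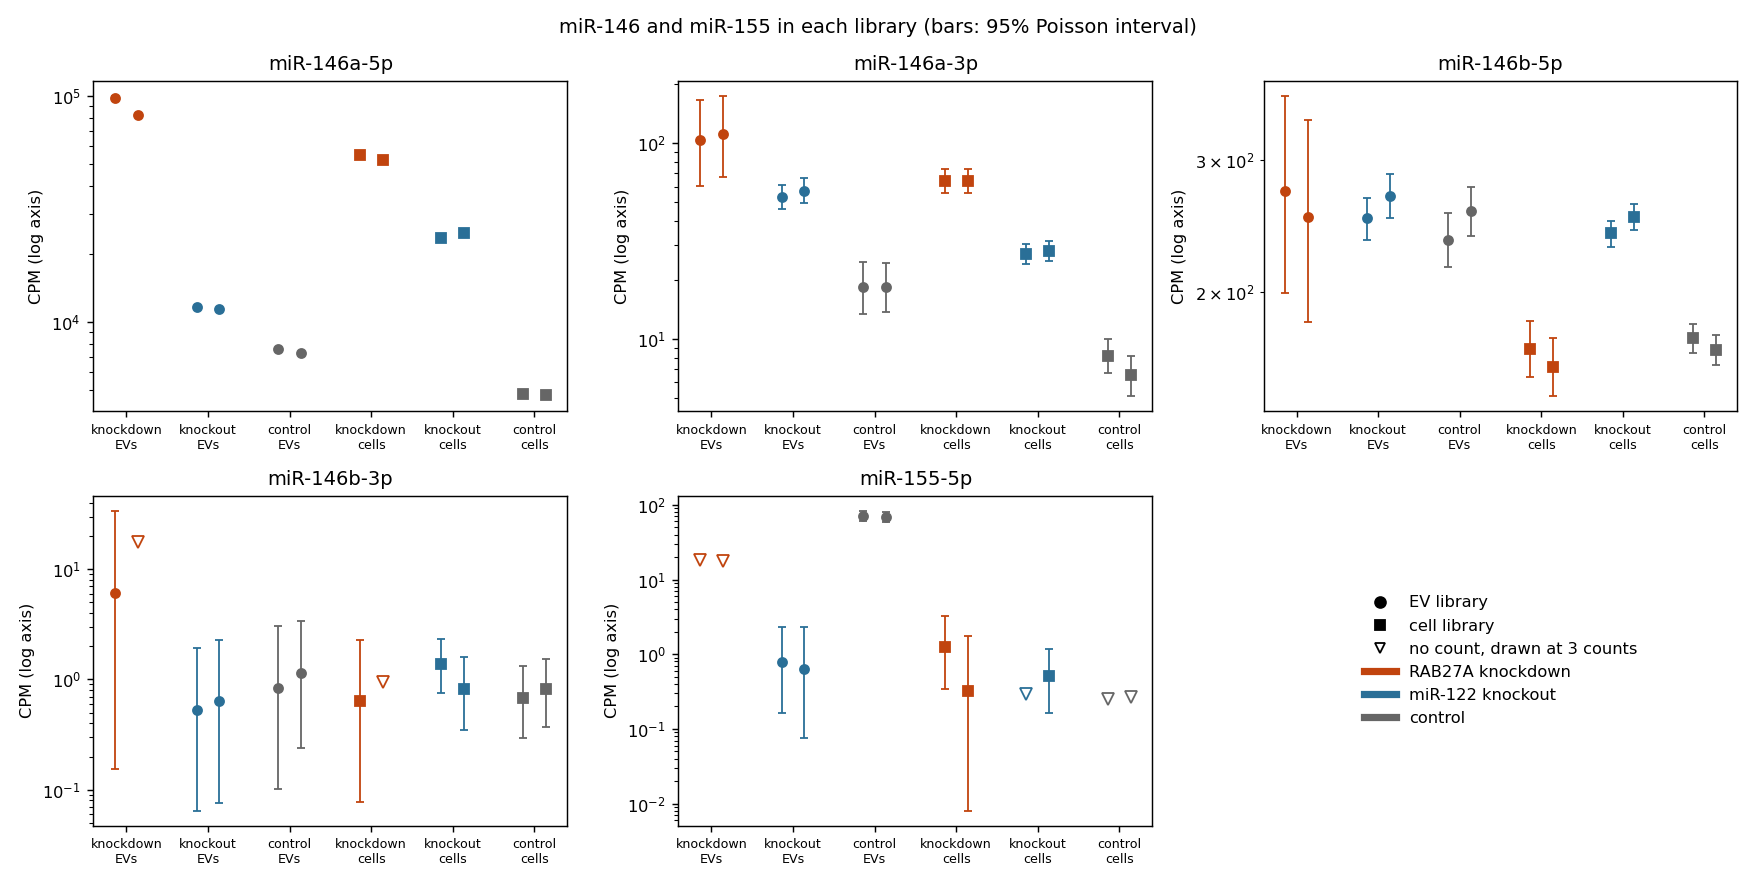
Levels of the 5 members in each of the 12 libraries, in CPM on log axes that differ between panels, with 95% exact Poisson intervals as bars and open triangles at 3 counts where a library had none. miR-146a-5p lies at 82065 and 98478 CPM in knockdown EVs and at 4749 and 4790 CPM in control cells, while miR-155-5p stands out in the 2 control EV libraries, at 68.6 and 71.6 CPM.

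Inside cells the guide arm miR-146a-5p was far higher in both altered lines than in the control. RAB27A knockdown cells held 54797 and 52000 CPM and miR-122 KO cells 23567 and 24854 CPM, against 4790 and 4749 CPM in control cells. The 3 pairs of libraries did not overlap, and the gaps between lines were many times the gaps within a pair. The log2 fold change was 3.50 (SE 0.12, 95% interval 3.25 to 3.75, edgeR adjusted p = 5.32e-15) for knockdown over control cells. For miR-122 KO over control cells it was 2.69 (SE 0.12, interval 2.44 to 2.93, edgeR adjusted p = 7.45e-14). The edgeR test used the 6 cell libraries and 613 miRNAs, and 53.8% of these were called between knockdown and control cells and 62.3% between miR-122 KO and control cells at an adjusted p of 0.05. Of the 3 members tested, 2 were called in knockdown cells and 3 in miR-122 KO cells, all higher, beside 24.3% and 27.7% of all miRNAs called higher and 29.5% and 34.6% called lower. The comparisons share the control libraries.

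The passenger arm miR-146a-3p, cut from the same hairpin and mostly degraded, was also higher. Knockdown cells held 203 and 201 counts of it and miR-122 KO cells 276 in each library, against 97 and 72 counts in control cells, whose libraries were the deepest. As levels these were 64.1 CPM ± 0.177 in knockdown cells, 27.6 CPM ± 0.648 in miR-122 KO cells and 7.35 CPM ± 1.19 in control cells (SD, n = 2 each). The log2 fold change was 3.14 (SE 0.19, edgeR adjusted p = 3.21e-11) for knockdown over control cells and 2.25 (SE 0.19, edgeR adjusted p = 2.69e-09) for miR-122 KO over control cells. Both arms of the hairpin were thus called higher in the cells of both altered lines.

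The paralog miR-146b-5p, which has the same seed but its own gene, did not share the change in knockdown cells. Those cells held 168 and 159 CPM and miR-122 KO cells 240 and 252 CPM, against 173 and 167 CPM in control cells. The knockdown and control libraries overlapped, whereas both miR-122 KO libraries lay above them. Knockdown over control cells gave a log2 fold change of −0.05 (95% interval −0.32 to 0.23, edgeR adjusted p = 0.805). miR-122 KO over control cells gave 0.87 (SE 0.13, interval 0.60 to 1.14, edgeR adjusted p = 6.52e-06).

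Between the altered lines, knockdown cells held more miR-146a and less miR-146b than miR-122 KO cells. Knockdown over miR-122 KO cells gave log2 fold changes of 0.81 (SE 0.11, edgeR adjusted p = 2.00e-06) for miR-146a-5p and 0.89 (SE 0.17, edgeR adjusted p = 1.58e-04) for miR-146a-3p. For miR-146b-5p it was −0.92 (SE 0.13, edgeR adjusted p = 4.23e-06). All 3 tested members were called, beside 64.4% of the 613 miRNAs (33.8% higher and 30.7% lower), so the count itself says little about them. Scaling by total counts in place of TMM moved the median of all miRNAs by −0.33 for miR-122 KO over control cells and by 0.32 for knockdown over miR-122 KO cells on the log2 scale. It left the calls of the 3 members in all 3 cell comparisons as they were.

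**Figure D2:**
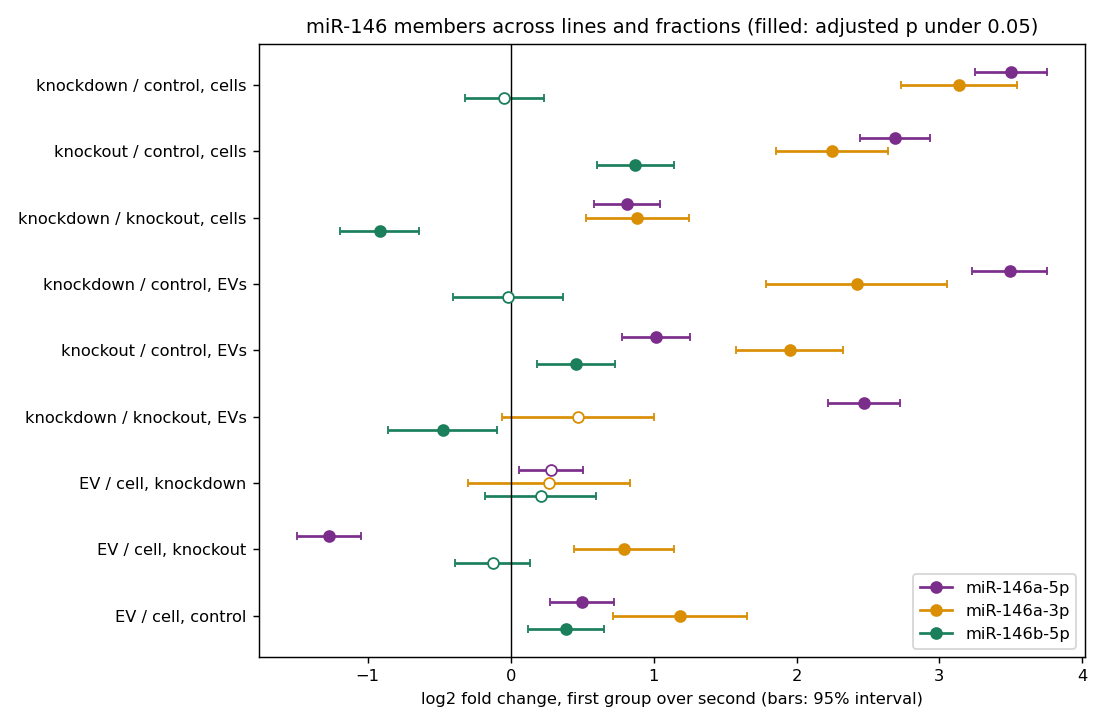
Log2 fold changes of miR-146a-5p, miR-146a-3p and miR-146b-5p for 6 comparisons of lines and 3 of EVs over cells, with 95% intervals as bars and filled points for an edgeR adjusted p under 0.05. miR-146a-5p reaches 3.50 in knockdown cells and 3.49 in knockdown EVs over control, whereas miR-146b-5p stays near 0 there, and miR-146a-5p lies at −1.27 in miR-122 KO EVs over cells.

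In EVs miR-146a-5p was again highest in the knockdown line, and the miR-122 KO line stood much nearer to the control than it did in cells. Knockdown EVs held 98478 and 82065 CPM and miR-122 KO EVs 11678 and 11458 CPM, against 7567 and 7272 CPM in control EVs. The groups did not overlap, although the 2 knockdown EV libraries, the shallowest, differed more from each other than the other pairs did. As shares of all counts these were 9.85% and 8.21% in knockdown EVs, 1.17% and 1.15% in miR-122 KO EVs, and 0.757% and 0.727% in control EVs.

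The log2 fold change of miR-146a-5p for knockdown over control EVs was 3.49 (SE 0.12, interval 3.23 to 3.75, edgeR adjusted p = 5.67e-10). For miR-122 KO over control EVs it was 1.02 (SE 0.11, interval 0.78 to 1.26, edgeR adjusted p = 7.55e-06), and for knockdown over miR-122 KO EVs 2.47 (SE 0.12, edgeR adjusted p = 4.76e-09). Scaling by total counts, which moved the median of all miRNAs by −0.38 for miR-122 KO over control EVs, gave 0.64 for that comparison, still past the threshold. The edgeR test on the 6 EV libraries covered 488 miRNAs. Of these 46.3% were called between knockdown and control EVs, 41.2% between miR-122 KO and control EVs and 40.4% between knockdown and miR-122 KO EVs. Of the 4 members tested, knockdown over control EVs had 2 higher and 1 lower, beside 18.9% and 27.5% of all. In miR-122 KO EVs 3 were called higher and 1 lower than in control EVs, beside 18.9% and 22.3% of all, and in knockdown EVs 1 higher and 1 lower than in miR-122 KO EVs, beside 17.6% and 22.7%.

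The passenger arm miR-146a-3p rose in the EVs of both altered lines. It had 17 and 19 counts in knockdown EVs and 200 and 181 in miR-122 KO EVs, against 44 and 48 in control EVs. The levels were 107 CPM ± 5.85 in knockdown EVs, 55.2 CPM ± 2.75 in miR-122 KO EVs and 18.5 CPM ± 0.0400 in control EVs (SD, n = 2 each). Knockdown over control EVs gave a log2 fold change of 2.42 (SE 0.29, edgeR adjusted p = 1.70e-05) and miR-122 KO over control EVs 1.95 (SE 0.17, edgeR adjusted p = 9.32e-07). The difference between knockdown and miR-122 KO EVs, 0.47 (interval −0.06 to 1.00, edgeR adjusted p = 0.155), did not pass the threshold with TMM factors. It was 0.96 with total counts (edgeR adjusted p = 0.00751), which moved the median of all miRNAs by 0.49.

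miR-146b-5p was nearly level across the EVs when expressed as CPM. Knockdown EVs held 273 and 252 CPM and miR-122 KO EVs 251 and 269 CPM, against 235 and 257 CPM in control EVs. All 3 pairs overlapped. Knockdown over control EVs gave a log2 fold change of −0.02 (interval −0.41 to 0.37, edgeR adjusted p = 0.942). With the GC correction, which moved the median of all miRNAs by 0.33, it was 0.51 and passed (edgeR adjusted p = 0.0259). For miR-122 KO over control EVs the main log2 fold change was 0.46 (SE 0.12, edgeR adjusted p = 0.00975), and for knockdown over miR-122 KO EVs −0.48 (SE 0.17, edgeR adjusted p = 0.0453). Both calls were lost with total counts, where the values were 0.08 (edgeR adjusted p = 0.624) and 0.02 (edgeR adjusted p = 0.989). Thinning to the shallowest library also ended both (0.29 and −0.27). The call between knockdown and miR-122 KO EVs was lost too with RLE factors, DESeq2, a replicate block, the GC correction (−0.03) and the 4 libraries alone. The first call was also lost without either control EV library, the second knockdown EV library or the second miR-122 KO EV library (values down to 0.24), and the other without any single EV library (−0.57 to −0.44).

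Its passenger arm miR-146b-3p was too rare for a test. It had 1 and 0 counts in knockdown EVs, 2 and 2 in miR-122 KO EVs and 2 and 3 in control EVs. In cells there were 2 and 0 counts in the knockdown line, 14 and 8 in the miR-122 KO line and 8 and 9 in the control line. The pooled level in miR-122 KO cells, 1.10 CPM (95% exact Poisson interval 0.689 to 1.66), and that in control cells, 0.742 CPM (0.432 to 1.19), have overlapping intervals.

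The division between the paralogs differed by line far more than between cells and EVs of the knockdown or control line. miR-146b-5p made up 0.277% and 0.307% of the summed miR-146a-5p and miR-146b-5p counts in knockdown EVs, 2.10% and 2.29% in miR-122 KO EVs, and 3.01% and 3.41% in control EVs. In cells it made up 0.306% and 0.305% in the knockdown line, 1.01% and 1.00% in the miR-122 KO line and 3.49% and 3.41% in the control line. The exact binomial 95% intervals of knockdown and control libraries were well apart, for example 0.280% to 0.333% in the first knockdown cell library against 3.35% to 3.65% in the first control cell library. With 2 libraries a group an exact two-sided permutation test cannot go below p = 0.333, so the shares were not tested. Shares are of counts, and efficiencies of ligation that differ between sequences would affect them.

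Together the miRNAs with the seed GAGAACU in both 5p arms took 9.88% and 8.23% of all counts in knockdown EVs, 1.19% and 1.17% in miR-122 KO EVs and 0.780% and 0.753% in control EVs. In cells they took 5.50% and 5.22% in the knockdown line, 2.38% and 2.51% in the miR-122 KO line and 0.496% and 0.492% in the control line. The order of the lines is that of miR-146a-5p, because miR-146b-5p adds at most 3.49% to the sum.

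The passenger arm of miR-146a was a small part of the hairpin's products everywhere, and its share was highest in miR-122 KO EVs. It took 0.105% and 0.136% of both arms in knockdown EVs, 0.454% and 0.496% in miR-122 KO EVs and 0.243% and 0.254% in control EVs. In cells it took 0.117% and 0.123% in the knockdown line, 0.115% and 0.113% in the miR-122 KO line and 0.171% and 0.137% in the control line. Within the miR-122 KO line the EV and cell intervals did not overlap (0.393% to 0.521% in the first EV library against 0.102% to 0.129% in the first cell library), whereas within the knockdown line they did.

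**Figure D3:**
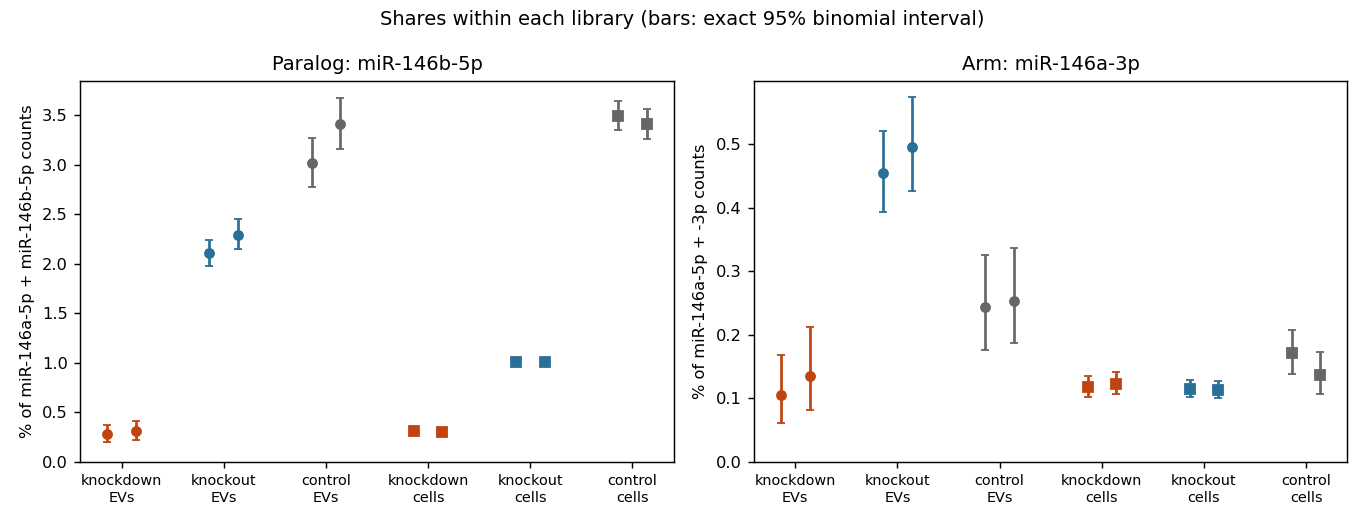
Share of miR-146b-5p among both miR-146 5p arms (left) and of miR-146a-3p among both miR-146a arms (right), in percent of counts per library with exact 95% binomial intervals as bars. miR-146b-5p lies below 0.31% in the 4 knockdown libraries and lies at 3.01% or above in the 4 control libraries, and miR-146a-3p is highest in miR-122 KO EVs, at 0.454% and 0.496%.

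Set against the cells that released them, EVs differed in miR-146a content by line. In the knockdown line EVs held 98478 and 82065 CPM of miR-146a-5p against 54797 and 52000 CPM in cells, and in the control line 7567 and 7272 CPM against 4790 and 4749 CPM. In the miR-122 KO line the order turned round, with 11678 and 11458 CPM in EVs against 23567 and 24854 CPM in cells. Over all 12 libraries and 574 miRNAs, EVs over cells gave log2 fold changes of 0.28 in the knockdown line (SE 0.11, edgeR adjusted p = 0.0663), −1.27 in the miR-122 KO line (SE 0.11, edgeR adjusted p = 3.11e-14) and 0.50 in the control line (SE 0.11, edgeR adjusted p = 1.58e-04).

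The difference between lines was tested itself. The EV to cell difference of miR-146a-5p in the miR-122 KO line minus that in the control line was −1.77 on the log2 scale (SE 0.16, interval −2.09 to −1.45, edgeR adjusted p = 7.93e-14). That of the knockdown line minus that of the control line was −0.22 (interval −0.53 to 0.10, edgeR adjusted p = 0.402). The value of 0.28 in the knockdown line passed the threshold with total counts, as 0.76 (edgeR adjusted p = 2.13e-06). It also passed with RLE factors (0.39), DESeq2 (0.39), thinning to the shallowest library (0.60) and the GC correction (0.58). The median of all miRNAs moved by 0.47 with total counts and by 0.10 with RLE factors and with DESeq2. It moved by 0.28 with thinning and by 0.30 with the GC correction. Without the first knockdown EV library the value for miR-146a-5p was −0.04. The value of 0.50 in the control line was 0.12 with no filter on low counts (edgeR adjusted p = 0.707). No filter moved the median of all miRNAs by −0.37 there.

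The passenger arm did not follow its guide arm in the miR-122 KO line. miR-146a-3p had 55.2 CPM ± 2.75 in miR-122 KO EVs against 27.6 CPM ± 0.648 in the cells (SD, n = 2 each), a log2 fold change of 0.79 (SE 0.17, edgeR adjusted p = 1.09e-04) where miR-146a-5p was at −1.27. That call was lost with no filter on low counts (0.41), with a GC correction (0.25) and after thinning to the shallowest library (0.54). In the control line miR-146a-3p was higher in EVs by 1.18 (SE 0.23, edgeR adjusted p = 2.33e-05). That call was lost after thinning too (1.36, edgeR adjusted p = 0.544). In the knockdown line the difference of 0.27 did not pass (edgeR adjusted p = 0.581), but did with total counts (0.74) and after thinning (1.46). These settings moved the median of all miRNAs by 0.47 and 0.28. The differences between lines gave −0.39 (edgeR adjusted p = 0.293) for miR-122 KO minus control, which passed with the GC correction (−0.78, edgeR adjusted p = 0.0240). They gave −0.91 (edgeR adjusted p = 0.0642) for knockdown minus control, which passed without the first miR-122 KO cell library (−1.0045) or the second miR-122 KO EV library (−1.0142).

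For miR-146b-5p the difference between EVs and cells depended on the processing. EVs over cells gave 0.21 in the knockdown line (edgeR adjusted p = 0.523), −0.12 in the miR-122 KO line (edgeR adjusted p = 0.434) and 0.39 in the control line (SE 0.13, edgeR adjusted p = 0.0113). In the knockdown line it passed with total counts (0.68, edgeR adjusted p = 0.00643) and after thinning (0.86, edgeR adjusted p = 0.0123). These settings moved the median of all miRNAs by 0.47 and 0.28. In the miR-122 KO line the value for miR-146b-5p passed as lower in EVs with no filter (−0.51, edgeR adjusted p = 0.00812), after thinning (−0.62, edgeR adjusted p = 0.0297) and with the GC correction (−0.53, edgeR adjusted p = 3.76e-04). The median of all miRNAs moved by −0.37, −0.08 and −0.09 there. The miR-122 KO line differed from the control line in the EV to cell difference of miR-146b-5p by −0.51 (SE 0.19, edgeR adjusted p = 0.0191). The control line call was lost with no filter (0.0106), after thinning (0.27) and with the GC correction (0.25). It was also lost without either control cell library or either knockdown EV library. The same held without the first knockdown cell, the second miR-122 KO cell or the second control EV library. Values over all libraries left out were 0.18 to 0.52. The call of the difference was lost without any single library except the first control EV and the second miR-122 KO EV library.

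Of the 4 tested members, none was called between EVs and cells of the knockdown line, where 19.3% of the 574 miRNAs were called (7.32% higher and 12% lower). In the miR-122 KO line 2 were called, 1 higher and 1 lower, beside 59.1% of all called, 33.3% higher and 25.8% lower. In the control line 4 were called, all higher in EVs, beside 53.7% of all called, 30.8% higher and 22.8% lower. For the differences between lines, 1 member was called for knockdown minus control, lower, beside 14.3% of all called lower and 4.36% higher. For miR-122 KO minus control 3 were called, all lower, beside 23.3% called lower and 24.9% higher. With 4 members tested, these counts are descriptions only.

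In order of mean level, miR-146a-5p ran from knockdown EVs (90271 CPM ± 11606) through knockdown cells (53399 ± 1978), miR-122 KO cells (24210 ± 910), miR-122 KO EVs (11568 ± 156) and control EVs (7419 ± 208) to control cells (4769 ± 29.5; SD, n = 2 each). Of these neighbours, knockdown EVs and knockdown cells did not pass the main edgeR test. They did pass with total counts, RLE factors, DESeq2, thinning and the GC correction. These settings moved the median of all miRNAs the same way, by 0.10 to 0.47 on the log2 scale. miR-146a-3p kept this order except that its miR-122 KO EVs stood above the miR-122 KO cells. miR-146b-5p lay between 246 and 263 CPM in the 3 EV groups and in miR-122 KO cells, and at 170 CPM in control cells and 163 CPM in knockdown cells.

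miR-155-5p was seen almost only in control EVs. These held 171 and 178 counts, or 71.6 and 68.6 CPM. Knockdown EVs held none in either library, so that a level of up to 8.95 CPM remains possible for the group, and miR-122 KO EVs held 3 and 2 counts, or 0.799 and 0.632 CPM. In cells there were 4 and 1 counts in the knockdown line, 0 and 5 in the miR-122 KO line, and none in the control line, where up to 0.131 CPM remains possible for the group.

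The level was therefore at least 7.83-fold lower in knockdown than in control EVs (edgeR adjusted p = 6.60e-05), taking 3 counts over the 2 knockdown EV libraries as the limit. In miR-122 KO EVs it was lower too (log2 fold change −6.12, SE 0.31, edgeR adjusted p = 1.11e-08). In control EVs it was at least 535-fold higher than in control cells (edgeR adjusted p = 4.38e-24). The EV to cell difference of miR-155-5p was smaller than the control line's in the knockdown line (edgeR adjusted p = 5.18e-06) and in the miR-122 KO line (edgeR adjusted p = 8.46e-07), with a fitted size that depends on the prior count and is not given. Thinning all libraries to the shallowest one ended both of these calls, and leaving out the second miR-122 KO cell library, which held all 5 counts of its group, ended that of the miR-122 KO line. EVs over cells of the miR-122 KO line itself did not pass for miR-155-5p (1.26, edgeR adjusted p = 0.255), but did without that cell library (4.82, edgeR adjusted p = 0.0183). With so few counts miR-155-5p did not enter the tests of cells, and no fold is given there.

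Other miRNAs of blood cells moved with miR-155-5p. The fixed leukocyte list has 6 miRNAs: both arms of miR-142 and of miR-223, with miR-150-5p and miR-342-3p. All 6 were called lower in knockdown than in control EVs and in miR-122 KO than in control EVs. All 6 were also called higher in control EVs than in control cells. Of all miRNAs tested, 27.5% were called lower in knockdown EVs and 22.3% in miR-122 KO EVs than in control EVs. In control EVs 30.8% of all were called higher than in control cells. The list's summed level was 109 to 170 CPM in knockdown EVs and 35.9989 to 54.9 CPM in miR-122 KO EVs. In control EVs it was 2244 to 2432 CPM. In cells it was 233 to 245 CPM in the knockdown line, 22.3 to 25.8 CPM in the miR-122 KO line and 187 to 194 CPM in the control line.

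Among the defining leukocyte markers, miR-223-3p of myeloid cells had no count in knockdown EVs, 11 and 5 counts in miR-122 KO EVs, 822 and 888 in control EVs and none in any cell library. miR-150-5p of mature lymphocytes had no count in knockdown EVs, 12 and 4 in miR-122 KO EVs and 608 and 699 in control EVs, with 1 count in 1 of the 6 cell libraries. miR-342-3p and both arms of miR-142 were also counted in every cell library, and miR-342-3p supplied most of the list's level there. The part that leukocyte RNA plays in the level of miR-155-5p in control EVs was not tested.

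**Figure D4:**
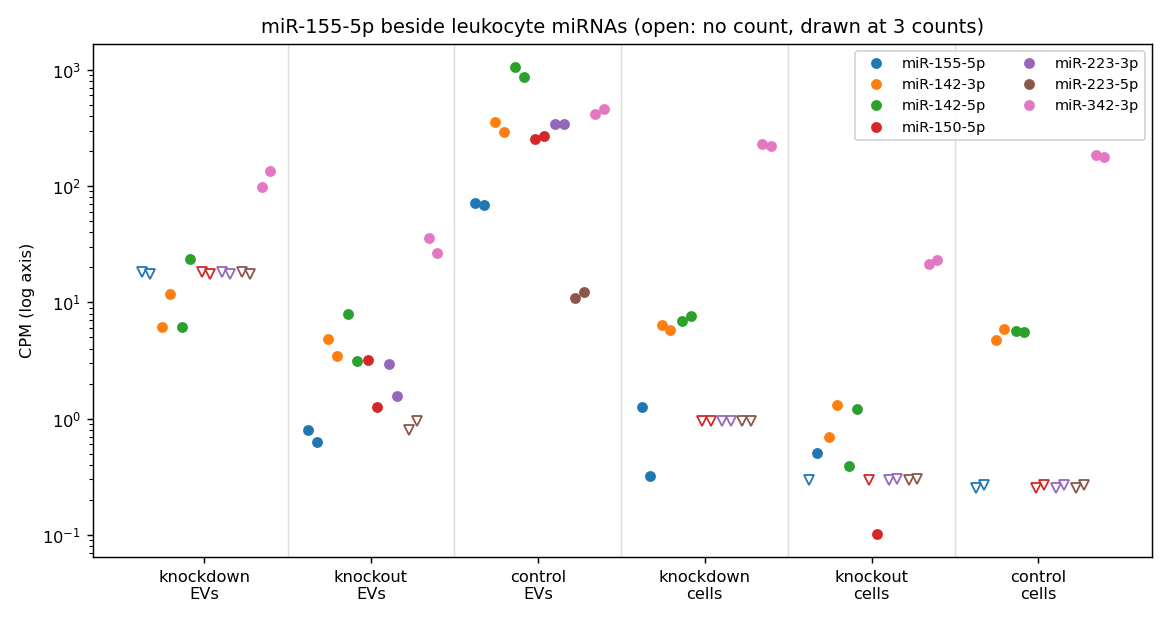
miR-155-5p beside the 6 miRNAs of the leukocyte list in each library, in CPM on a log axis, with open triangles at 3 counts where a library had none. In control EVs miR-155-5p lies at 68.6 and 71.6 CPM and the whole list above 10 CPM, and in the cells miR-223-3p has no count in any library.

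Lists of other cell types moved in the same way. They were the erythroid list (4 miRNAs, led by miR-451a), the stromal list (5, led by miR-143-3p) and the endothelial list (both arms of miR-126). Each list was called lower in full in knockdown and in miR-122 KO EVs than in control EVs. Of all miRNAs tested, 27.5% and 22.3% were called lower in these comparisons. The erythroid sum averaged 188 CPM in knockdown EVs and 168 CPM in miR-122 KO EVs against 8796 CPM in control EVs. The stromal sum averaged 113, 34.1 and 3249 CPM in knockdown, miR-122 KO and control EVs, and the endothelial sum 253, 133 and 2807 CPM. The cultures were grown in serum before the 24 h without it, and the part of serum RNA was not tested.

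miR-146a is also abundant in leukocytes, and its levels were set beside the same list. In EVs the calls had opposite directions: miR-146a-5p was called higher in knockdown and in miR-122 KO than in control EVs, and all 6 list members were called lower. In cells 3 of the 6 list members were tested. Of these 1, miR-342-3p, was called higher in the knockdown line than in the control (0.35 on the log2 scale, edgeR adjusted p = 0.0337). All 3 were called lower in miR-122 KO than in control cells. Of all miRNAs tested in cells, 24.3% were called higher in the knockdown line and 34.6% lower in the miR-122 KO line than in the control. The part of leukocyte RNA in the level of miR-146a in EVs or in cells was not tested. In the control line both miR-146a arms and the whole list were called higher in EVs than in cells, and the part of leukocyte RNA in that difference was not tested.

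Other miRNAs tied to NF-kappaB were called in both directions in cells. The list of miRNAs known to be induced by NF-kappaB or inflammatory signals in some cell type had 11 of 12 members tested. Of these 2 were called higher and 1 lower in knockdown than in control cells, and 4 higher and 4 lower in miR-122 KO than in control cells. Over all 613 miRNAs the shares called higher and lower were 24.3% and 29.5% for the knockdown and 27.7% and 34.6% for the miR-122 KO. The median log2 fold change of the list was 0.20 in knockdown cells, beside −0.11 over all 613 miRNAs, and −0.05 in miR-122 KO cells, beside −0.08 over all. In EVs 2 were called higher and 1 lower in the knockdown line, and 4 higher and none lower in the miR-122 KO line. Of all 488 miRNAs, 18.9% were called higher and 27.5% lower for the knockdown, and 18.9% and 22.3% for the miR-122 KO. The list's median in miR-122 KO EVs was 0.45 beside 0.03 over all 488.

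Its abundant members differed in direction. miR-21-5p, a widely expressed miRNA that represses PDCD4, was higher by 0.87 on the log2 scale in knockdown than in control EVs (SE 0.09, edgeR adjusted p = 7.05e-06), but the difference of 0.16 in cells did not pass (edgeR adjusted p = 0.221). miR-125b-5p, which represses TNFAIP3, an inhibitor of NF-kappaB, gave a log2 fold change of −0.40 in knockdown over control cells (edgeR adjusted p = 0.00325) and of 0.89 in miR-122 KO over control cells (edgeR adjusted p = 4.49e-07). The neighbours miR-221-3p and miR-222-3p, which repress CDKN1B, gave 0.20 (edgeR adjusted p = 0.197) and 0.43 (edgeR adjusted p = 0.00324) in knockdown over control cells. In miR-122 KO over control cells miR-21-5p gave 0.40 (edgeR adjusted p = 0.00335) and miR-222-3p −0.57 (edgeR adjusted p = 1.93e-04), while −0.05 for miR-221-3p did not pass. In miR-122 KO over control EVs miR-125b-5p gave 0.84 (edgeR adjusted p = 1.56e-04) and miR-221-3p 0.57 (edgeR adjusted p = 2.57e-04). There miR-21-5p (0.07) and miR-222-3p (0.34) did not pass. In knockdown over control EVs miR-125b-5p gave −1.45 (edgeR adjusted p = 2.07e-06), while 0.22 for miR-221-3p and 0.07 for miR-222-3p did not pass. In the same comparisons miR-146a-5p was at 3.49 in knockdown EVs, 3.50 in knockdown cells, 2.69 in miR-122 KO cells and 1.02 in miR-122 KO EVs.

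The list of miRNAs known to target parts of the NF-kappaB pathway also had calls in both directions. Of 9 tested in cells, 2 were called higher and 4 lower in the knockdown line and 1 higher and 4 lower in the miR-122 KO line than in the control, beside 24.3% higher and 29.5% lower over all miRNAs for the knockdown and 27.7% and 34.6% for the miR-122 KO. The list's median was −0.0021 in knockdown cells and −0.68 in miR-122 KO cells, beside −0.11 and −0.08 over all miRNAs. Of 10 tested in EVs, 4 were called higher and 4 lower in the knockdown line and 2 higher and 2 lower in the miR-122 KO line, beside 18.9% higher and 27.5% lower over all miRNAs for the knockdown and 18.9% and 22.3% for the miR-122 KO. miR-181a-5p was higher by 0.69 in knockdown (edgeR adjusted p = 1.75e-05) and by 1.21 in miR-122 KO (edgeR adjusted p = 6.79e-09) than in control cells. miR-16-5p, a cell cycle regulator, was lower in miR-122 KO than in control cells (log2 fold change −2.81, edgeR adjusted p = 6.99e-14), and let-7a-5p was lower in knockdown than in control cells (−0.35, edgeR adjusted p = 0.0122).

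The miRNAs with patterns most like that of miR-146a-5p were found by the root mean square difference between log2 CPM profiles, each centred on its own mean over the 12 libraries, among 557 candidates. They were miR-181c-5p (0.65, Pearson r = 0.93), miR-1301-3p (0.66, r = 0.897), miR-455-5p (0.70, r = 0.972), miR-181d-5p (0.83, r = 0.923) and miR-760 (0.84, r = 0.955). The 12 libraries share their groups and depths, so these values only describe likeness. miR-181c-5p averaged 50.6 CPM in knockdown EVs, 8.43 CPM in miR-122 KO EVs and 9.42 CPM in control EVs, and 25.2, 21.96 and 6.84 CPM in knockdown, miR-122 KO and control cells. The passenger arm miR-146a-3p differed from miR-146a-5p by 0.76 (r = 0.858) and the paralog miR-146b-5p by 1.502 (r = 0.036).

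For miR-155-5p the most like patterns were those of miR-409-5p (0.52, r = 0.978), miR-487b-3p (0.58, r = 0.972), miR-493-5p (0.63, r = 0.97), miR-376c-3p (0.64, r = 0.965) and miR-432-5p (0.65, r = 0.965). All are known as products of the imprinted miRNA cluster of the long arm of chromosome 14. Each had no count in knockdown EVs, under 1 CPM in miR-122 KO EVs and 32.1 to 74.2 CPM in control EVs, with at most 0.251 CPM in any cell group. With most libraries at or near 0, likeness here rests on the shared presence in the 2 control EV libraries.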

How the data were processed

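Small RNA was sequenced from cells and EVs of 3 MDA-MB-231 lines. The deposited table holds whole-number counts per mature miRNA without normalization. cutadapt, Bowtie and build hg19 are named in the submitters' processing notes; versions, mismatches and the handling of shared reads were not given in the sources used here. Counts were tested with edgeR 4.0.16 (limma 3.58.1, R 4.3.3; quasi-likelihood, TMM factors, filterByExpr, Benjamini-Hochberg, threshold 0.05). The 6 comparisons of lines used the 6 cell or the 6 EV libraries; the other 5 of 11 comparisons, EVs against cells and the differences between lines, on all 12. The SE is the log2 fold change over the square root of F. Each p-value is adjusted over all miRNAs tested.

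Levels are CPM on total counts; limits are 3 counts and, like the intervals (95%), cover counting error only, since no molecular identifiers are recorded. Depth ranged from 164656 to 11840597 counts. Alternatives were RLE factors, total counts, no filter, DESeq2 1.42.0, a replicate block, thinning to the shallowest library, a GC correction, other sets of libraries and each library left out. Named miRNAs are the 5 members, miR-155-3p, miR-122-5p, the 5 patterns most like miR-146a-5p and miR-155-5p each, and, per list, the most abundant miRNAs up to 4. The edgeR script was tested on simulated data. Members and lists were chosen with earlier results of these data known. Exceptions, chosen after their values were seen, are miR-150-5p and the exact motif.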

Additional observations from a re-analysis of the deposited data

Results flagged for a closer look

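The EV to cell difference of miR-146a-5p, miR-146b-5p and miR-155-5p depended on the line by the test of that difference itself. For miR-146a-5p the miR-122 KO line differed from the control line by −1.77 on the log2 scale (edgeR adjusted p = 7.93e-14), with 11568 CPM in miR-122 KO EVs against 24210 CPM in miR-122 KO cells and 7419 CPM in control EVs against 4769 CPM in control cells. For miR-146b-5p the same difference was −0.51 (edgeR adjusted p = 0.0191), a call lost with no filter on low counts (edgeR adjusted p = 0.127) and without any single library except the first control EV and the second miR-122 KO EV library. For miR-155-5p the difference from the control line was found in the miR-122 KO line (edgeR adjusted p = 8.46e-07) and in the knockdown line (edgeR adjusted p = 5.18e-06); thinning to the shallowest library ended both calls, and leaving out the second miR-122 KO cell library ended that of the miR-122 KO line. The level of miR-155-5p was 0.715 CPM in miR-122 KO EVs, 0 in knockdown EVs and 70.1 CPM in control EVs.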

How the results depend on the processing

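Against the control, miR-146a-5p and miR-146a-3p kept their direction and their side of the threshold in cells and EVs of both altered lines under all alternatives run, as did miR-155-5p in EVs. For miR-146a-5p the log2 fold change ranged from 3.27 to 3.63 in knockdown cells, 2.34 to 3.31 in miR-122 KO cells, 3.19 to 4.09 in knockdown EVs and 0.64 to 1.15 in miR-122 KO EVs. The shallow knockdown EV libraries limit what EV tests can show.

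The count of members called between knockdown and miR-122 KO EVs, 2, was 1 with RLE factors, DESeq2, thinning and the 4 libraries alone, and 1 on leaving out any library. Between EVs and cells it was 2, not 4, in the control line with no filter and with thinning, and in the knockdown line 1 with RLE factors, DESeq2 and the GC correction and 3 with total counts and thinning, not 0. For the difference between lines it was 0, not 1, with thinning for knockdown minus control (1 to 2 on leaving out a library), and 1 to 3 on leaving out a library for miR-122 KO minus control. Thinning lowered the count of all miRNAs called to 79 for miR-122 KO over control EVs, 110 and 120 for EVs over cells of the control and miR-122 KO lines, and 58 and 94 for the differences of the knockdown and miR-122 KO lines from control; it has fewer counts by construction. On leaving out a library the count was 196 to 385 for knockdown over control cells and 127 to 205 for miR-122 KO over control EVs.

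Signs turned round in values mostly near 0. For miR-146b-5p in knockdown over control cells they were 0.0825 (RLE, DESeq2), 0.0060 (thinning), 0.0075 (12 libraries), 0.0451 (GC) and −0.0834 to 0.0204 (a library left out). In knockdown over control EVs they were 0.10 (total counts, 4 libraries), 0.0204 (thinning) and 0.51 (GC, past the threshold), and in knockdown over miR-122 KO EVs 0.0163 (total counts). For EVs over cells of the knockdown line, leaving out a library gave −0.0447 to 0.27 for miR-146a-5p and −0.038 to 0.20 for miR-146b-5p; for the miR-122 KO line miR-146b-5p gave 0.08 (total counts) and −0.19 to 0.0498 (a library left out), but −0.51 (no filter), −0.62 (thinning) and −0.53 (GC), all past the threshold. For knockdown minus control, miR-146a-5p gave 0.12 (total counts, no filter) and 0.24 (GC), miR-146b-5p 0.16 (total counts, no filter), 0.59 (thinning) and 0.26 (GC), and miR-146a-3p 0.10 (thinning). miR-155-5p gave 0.15 in knockdown over miR-122 KO EVs and 0.10 in EVs over cells of the knockdown line with DESeq2. The median of all miRNAs moved too. For knockdown over control cells it moved by 0.13 (RLE, DESeq2, GC), 0.07 (thinning) and 0.05 (12 libraries). For knockdown over control EVs it moved by 0.12 (total counts), 0.19 (thinning) and 0.33 (GC). For knockdown minus control it moved by 0.34 (total counts, no filter), 0.17 (thinning) and 0.39 (GC). For EVs over cells of the miR-122 KO line it moved by 0.20 (total counts), −0.37 (no filter), −0.08 (thinning) and −0.09 (GC). The causes were not tested.

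Between groups, the difference of the first from the second replicate correlated at −0.14 to 0.09 across miRNAs. Same-numbered libraries thus showed no clear shared deviation. Such values cannot tell whether these libraries came from the same culture. With a replicate block, 319 miRNAs were called for knockdown over control cells, and 1 member in place of 2 between knockdown and miR-122 KO EVs; no other count of members changed.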
